A study of Mus musculus with 22 samples.

Results

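The kappa and lambda light chain genes of the mouse were followed in lymphomas of the B lineage. They were taken as every gene whose symbol starts with Igkv, Igkc, Iglv or Iglc, without the surrogate light chain genes Vpreb and Igll, and 168 of the 52636 genes in the count table met this rule. They comprised the kappa constant gene Igkc, 160 kappa V segments of which 60 are annotated as pseudogenes, the 4 lambda constant genes Iglc1 to Iglc4, and 3 lambda V segments. Of the 168 genes, 95 had at least 1 count in some library and 73 were at 0 in all 22 libraries.

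The 22 libraries came from 15 mice of mixed 129/C57Bl6 background. All carried p53fl/fl and Mb1Cretg/+: floxed p53 (Trp53) alleles that Cre removes, with Cre under the B-lineage promoter Mb1 (Cd79a), so every group here shares that deletion and no tumour-free tissue was analysed. The genotype R26-Ccnd2tg/tg;p53fl/fl;Mb1Cretg/+ adds a cyclin D2 transgene in the Rosa26 locus. The submitters' immunophenotype field divides the tumours into MCL-like (resembling mantle cell lymphoma) and non-MCL. MCL-like primaries with the transgene gave 4 libraries from 4 mice, non-MCL primaries with the transgene (Ccnd2 non-MCL) gave 3 from 3 mice, and non-MCL primaries without it (p53-only) gave 7 from 6 mice, since p53-only replicates 2 and 5 share a mouse. Transplants in NSG mice, which lack B and T cells of their own, gave 6 MCL-like libraries from tumours of 4 mice and 2 Ccnd2 non-MCL libraries from 1 mouse. For the 6 MCL-like transplants the sample title says non-MCL, and the immunophenotype field was followed. The labels do not state the ages of the mice.

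Library totals ran from 2693399 to 8146613 counts. Cd79b, Ms4a1 and Cd22, which mark B cells, summed to 443 to 3052 CPM (counts scaled to a library total of 1000000) in the 22 libraries, and 6 T cell genes summed to 1.65 to 217 CPM. The transplant pair with the Ccnd2 non-MCL label had 45.8 and 83.4 CPM of Ccnd2. Primaries with that genotype had 450.6 to 1953 CPM if non-MCL and 1181 to 2127 CPM if MCL-like. The p53-only primaries, without the transgene, had 5.49 to 1028 CPM. It was not tested if transgene reads count towards Ccnd2, so these values do not check the genotype label. By the tumour type field MCL-like primary replicate 1 was mesenteric, Ccnd2 non-MCL replicate 1 and p53-only replicate 4 were mediastinal, p53-only replicate 6 was a thymoma, replicates 5 and 7 had no site, and all others were splenic. Libraries were made in bulk and not from single cells, so fewer cells of a type and less RNA per cell cannot be told apart.

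A light chain gene is assembled in a precursor B cell by joining a V segment to a J segment upstream of a constant region. Kappa is usually rearranged first and lambda later, a B cell normally keeps 1 light chain type, and in the mouse most B cells carry kappa. Before that step the surrogate light chain, made of Vpreb and Igll1 proteins, takes the light chain's place beside the mu heavy chain (Ighm). A clone of B cells carries the same joined V segment, which is why V segments are read as clonal marks. The libraries were made by 3′ end sequencing, so a joined light chain transcript contributes most of its tags in the constant gene at its 3′ end, and few tags in the V segment.

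The lambda constant genes form closely related pairs, which matters for counting because a tag can only be given to a gene where the copies differ. The last 90 coding bases of each constant gene are shown, stop codon included, from GENCODE M21 transcripts (GRCm38). Capitals mark the stop codon in Igkc, and in the lambda genes the bases that differ from Iglc2 at the same position. The stretches lie at Igkc (chr6:70726668-70726757, plus strand), Iglc1 (chr16:19061752-19061841, minus strand), Iglc2 (chr16:19198536-19198625, minus strand), Iglc3 (chr16:19065365-19065454, minus strand) and Iglc4 (chr16:19194999-19195088, minus strand).
Igkc: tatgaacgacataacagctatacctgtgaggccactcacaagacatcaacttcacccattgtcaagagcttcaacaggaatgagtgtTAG
Iglc2: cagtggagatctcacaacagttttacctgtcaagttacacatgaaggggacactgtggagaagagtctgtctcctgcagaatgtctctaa
Iglc3: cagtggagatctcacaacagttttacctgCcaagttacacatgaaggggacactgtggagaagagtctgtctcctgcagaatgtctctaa
Iglc1: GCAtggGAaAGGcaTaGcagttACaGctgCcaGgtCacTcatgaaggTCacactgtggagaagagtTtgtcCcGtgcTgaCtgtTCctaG
Iglc4: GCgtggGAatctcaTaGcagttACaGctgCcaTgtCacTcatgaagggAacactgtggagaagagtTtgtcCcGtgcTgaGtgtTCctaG
Iglc3 differed from Iglc2 at 1 of the 90 bases. Iglc1 differed from Iglc2 at 27 bases and from Iglc4 at 8. In the annotated stretch after the stop codon, where 3′ tags concentrate, Iglc2 and Iglc3 were identical at 126 of 140 aligned positions. Counts of Iglc2 and Iglc3 may therefore be split between them. Igkc lies within the long noncoding gene Gm30211 on the same strand, which held 3993 counts against 799126 for Igkc. Iglc1, Iglc3 and Iglv1 lie antisense to 2010309G21Rik, which held 433 counts, and the strand setting of the counting was not stated in the labels or notes.

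V segments are shown by their last 72 bases, which hold the codon of the conserved cysteine (capitals) that opens the third complementarity-determining region (CDR3), the part of the chain made at the V to J join. These 8 segments were each the leading V segment of at least 1 library or the mark of 1 mouse in the results below. They lie at Igkv2-109 (chr6:68303087-68303158, plus strand), Igkv2-116 (chr6:68152546-68152617, plus strand), Igkv1-35 (chr6:70010949-70011020, minus strand), Igkv14-126 (chr6:67896571-67896642, plus strand), Igkv9-119 (chr6:68056739-68056810, plus strand), Igkv17-121 (chr6:68037247-68037318, plus strand), Igkv9-124 (chr6:67942074-67942145, minus strand) and Iglv1 (chr16:19085017-19085088, minus strand).
Igkv2-109: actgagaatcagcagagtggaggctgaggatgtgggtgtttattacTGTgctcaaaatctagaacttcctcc
Igkv2-116: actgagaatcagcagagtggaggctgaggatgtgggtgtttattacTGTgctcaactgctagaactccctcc
Igkv1-35: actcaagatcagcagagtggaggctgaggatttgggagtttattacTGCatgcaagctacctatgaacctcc
Igkv14-126: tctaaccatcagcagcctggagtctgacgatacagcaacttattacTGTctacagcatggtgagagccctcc
Igkv9-119: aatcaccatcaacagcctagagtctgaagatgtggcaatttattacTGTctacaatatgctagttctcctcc
Igkv17-121: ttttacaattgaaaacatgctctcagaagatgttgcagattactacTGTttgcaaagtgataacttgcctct
Igkv9-124: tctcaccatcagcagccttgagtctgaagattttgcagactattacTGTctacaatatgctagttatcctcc
Iglv1: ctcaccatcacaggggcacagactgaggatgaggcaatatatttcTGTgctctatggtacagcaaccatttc
Igkv2-116 and Igkv9-119 are annotated as pseudogenes. Igkv2-109 and Igkv2-116 were identical at 347 of 362 bases (95.9%), the closest relative of either among all V segments. Iglv1 matched Iglv2 at 354 of 366 bases, Igkv9-119 matched Igkv9-128 at 333 of 353, and Igkv17-121 matched Igkv17-127 at 350 of 359. The annotation follows the C57BL/6 genome while the mice were of mixed background, and the effect of 129 alleles on the assignment of V counts was not tested.

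Igkc lay above every lambda constant gene in 21 of 22 libraries and reached its highest levels in MCL-like transplants. MCL-like primary replicates 1 to 4 had 12221, 7342, 1873 and 5921 CPM of Igkc. Ccnd2 non-MCL primary replicates 1 to 3 had 1818, 2223 and 1127 CPM. MCL-like replicate 3 lay within the Ccnd2 non-MCL range, and the other MCL-like primaries lay above it. In p53-only primary replicates 1 to 7 Igkc was at 2242, 6175, 5015, 38.5, 3835, 149.8 and 5092 CPM. Replicates 4, a mediastinal lymphoma, and 6, a thymoma by the tumour type field, were thus far below the other p53-only libraries. MCL-like transplants had a lowest Igkc level of 6883, a median of 15461 and a highest of 47500 CPM, and the pair of Ccnd2 non-MCL transplants had 6232 and 7339 CPM. Over mice the mean was 6839 ± 4271 CPM (SD, n = 4) in MCL-like, 1723 ± 554 CPM (n = 3) in Ccnd2 non-MCL primaries and 2991 ± 2519 CPM (n = 6) in the p53-only group.

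**Figure D1:**
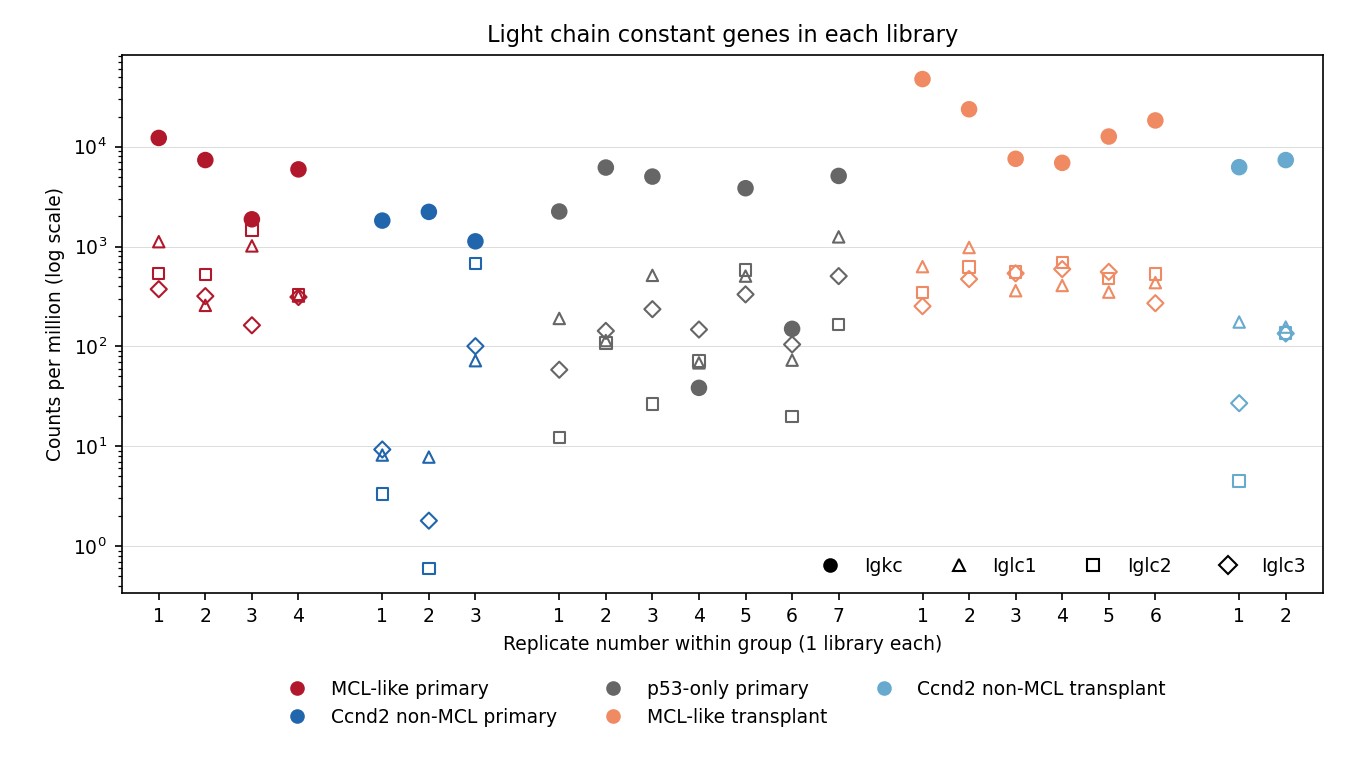
Level of the light chain constant genes in each library, in CPM on a log scale: filled circles are Igkc, open triangles Iglc1, squares Iglc2 and diamonds Iglc3, coloured by group. Igkc lies above the lambda genes in every library except p53-only replicate 4, where it is lowest of the 4 genes, and Iglc1 to Iglc3 are lowest in Ccnd2 non-MCL primary replicates 1 and 2.

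The lambda constant genes were nearly absent from a pair of Ccnd2 non-MCL primaries and present in every MCL-like tumour. Iglc1 was at 1118, 257.6, 1014 and 319 CPM in MCL-like primary replicates 1 to 4, and at 8.17, 7.79 and 71.9 CPM in Ccnd2 non-MCL replicates 1 to 3. Iglc2 was at 540.3, 528 and 1467 CPM in MCL-like replicates 1 to 3 and 331 CPM in replicate 4. In Ccnd2 non-MCL replicates 1 and 2 it was at 3.34 and 0.599 CPM, while replicate 3 had 676 CPM, within the MCL-like range. Iglc3 was at 374, 319, 163 and 312 CPM in the MCL-like primaries against 9.28, 1.80 and 100.5 CPM in the Ccnd2 non-MCL primaries. Iglc4 had 47, 14, 12 and 6 counts in MCL-like primaries and 0 counts in all 3 Ccnd2 non-MCL primaries. Pooled over the libraries of each group, the MCL-like level was at least 24.9-fold higher, taking 3 counts over the group as the limit that 0 counts allow. Without MCL-like replicate 1, which held 47 of the 79 counts, the pooled level was at least 13-fold higher. These folds describe pooled counts and are no bound for single tumours. By library, 3 counts were 1.11, 0.899 and 0.368 CPM in Ccnd2 non-MCL replicates 1 to 3, while MCL-like replicate 4 had 1.61 CPM of Iglc4.

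Among p53-only primaries the summed lambda constant level ran from 197 to 1920 CPM over mice. Replicate 7 had the highest Iglc1 of all 22 libraries, at 1249 CPM. Which lambda gene led also differed between tumours: Iglc1 led in 9 libraries, Iglc2 in 8 and Iglc3 in 5. Iglc2 led in 3 of 4 MCL-like primaries, in 1 of 3 Ccnd2 non-MCL primaries and in 1 of 7 p53-only libraries. In MCL-like replicate 4 this was a near tie, 1231 counts beside 1189 of Iglc1 and 1162 of Iglc3. Since Iglc2 and Iglc3 counts may be split between these genes, such leads are loosely set and were not compared between groups. The largest lead was that of Iglc1 in Ccnd2 non-MCL transplant replicate 1, with 84.8% of lambda constant counts, against 36.4% in the other transplant of that mouse.

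The kappa share, Igkc as a percentage of Igkc and Iglc1 to Iglc4 counts, lay above 80% in 16 of 22 libraries. It was 85.7%, 86.9% and 86.0% in MCL-like primary replicates 1, 2 and 4, and 41.4% in replicate 3 (95% exact binomial interval 40.6 to 42.2%). Intervals cover counting error only. In Ccnd2 non-MCL replicates 1 and 2 the share was 98.9% and 99.5%, and in replicate 3 it was 57.1%. The p53-only replicates 1 to 7 had 89.6%, 94.4%, 86.6%, 11.8%, 72.9%, 43.2% and 72.6%. The share in p53-only replicate 4 rested on 1185 constant counts and came with an Igkc level of 38.5 CPM, its Iglc sum of 287 CPM being within the range of the other tumours. MCL-like replicate 3 had the highest Iglc sum of all libraries, 2648 CPM, and the lowest Igkc level of the MCL-like primaries. Ccnd2 non-MCL replicate 3 had an Iglc sum of 848 CPM, against 20.8 and 10.2 CPM in replicates 1 and 2.

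**Figure D2:**
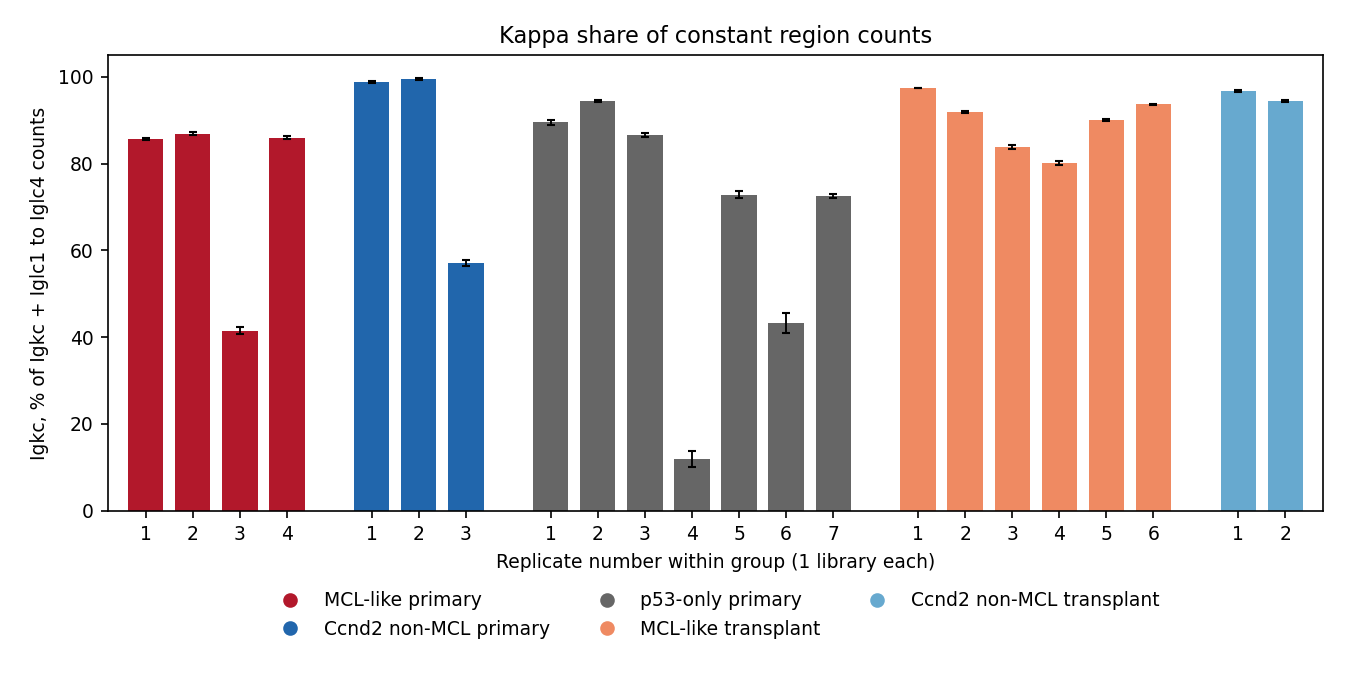
Kappa share of constant region counts in each library (bars, from 0), with 95% exact binomial intervals for counting error, coloured by group. MCL-like replicate 3, Ccnd2 non-MCL replicate 3 and p53-only replicates 4 and 6 stand below 60%, and Ccnd2 non-MCL replicates 1 and 2 are near 99%.

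In MCL-like transplant replicates 1 to 6 the kappa share was 97.5%, 91.9%, 83.8%, 80.2%, 90.1% and 93.6%. Ccnd2 non-MCL transplants had 96.8% and 94.5%. Over mice the share was 75.0 ± 22.4% (SD, n = 4) in MCL-like primaries, 85.2 ± 24.3% (n = 3) in Ccnd2 non-MCL primaries and 65.4 ± 31.6% (n = 6) in the p53-only group. These ranges overlapped, and the share was not tested because it is a score over the genes described.

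V segment counts were few, 23 to 271 in a library and 2721 in all, against 892355 counts in the constant genes. Of 163 V segments 90 had a count, among them 21 of the 60 pseudogenes. The kappa part of V counts could differ widely from the kappa share of constant counts. It was 92.4% against 11.8% in p53-only replicate 4, 92.9% against 43.2% in replicate 6 and 35.7% against 72.6% in replicate 7. In MCL-like primary replicate 3 it was 87.4% against 41.4%, and in Ccnd2 non-MCL primary replicate 3 95.1% against 57.1%. A leading V segment there need not belong to the main light chain transcript. In 19 libraries there were 0.0753 to 0.833 V counts per 100 constant counts. Ccnd2 non-MCL replicate 1 had 5.31, p53-only replicate 6 had 10.6 and p53-only replicate 4 had 18.8. The p53-only ratios rest on few constant counts, 1739 in replicate 6 and 1185 in replicate 4. Their V segments summed to 36.7 and 61.3 CPM, beside 37.7 and 55.9 CPM in MCL-like primary replicates 3 and 1. The V sum of Ccnd2 non-MCL replicate 1 was 97.6 CPM. Vpreb1 was at 5231, 458 and 5132 CPM in these 3 libraries, in the order of the ratios. High Vpreb1 did not always go with a high ratio, since Ccnd2 non-MCL replicate 2 had 5691 CPM of Vpreb1 and 0.604 V counts per 100 constant counts. Ccnd2 non-MCL replicate 3 had 2424 CPM and a ratio of 0.503, and p53-only replicate 7 had 2879 CPM and 0.475.

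**Figure D3:**
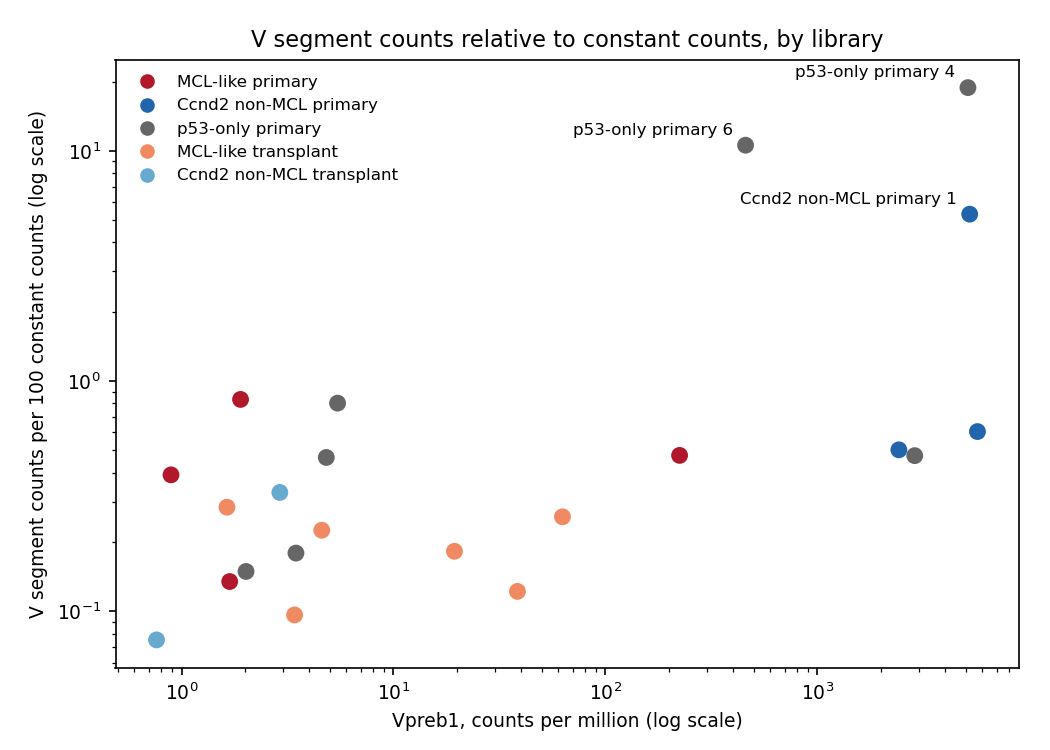
V segment counts per 100 constant region counts against the level of Vpreb1, a surrogate light chain gene, with 1 point per library and both axes on a log scale. The 3 named libraries lie above 5 on the vertical axis, and all others lie below 1 at Vpreb1 levels from 0.762 to 5691 CPM.

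Igkv2-109, a functional kappa V segment 2423 kb upstream of Igkc, had the most counts of all V segments. It led in 6 libraries, was counted in 21 of 22 and held 22.2% of all V counts. It held 10% or more of V counts in 9 of 10 MCL-like libraries, with 50.4% in MCL-like primary replicate 3 (60 of 119 V counts, 95% exact interval 41.1 to 59.7%) and 36.1% in replicate 4. In Ccnd2 non-MCL replicate 1 it had 121 of 263 V counts (46.0%). It also held 10% or more in Ccnd2 non-MCL replicate 3, Ccnd2 non-MCL transplant replicate 2 and p53-only replicates 1, 2, 3 and 5. It was below 10% in Ccnd2 non-MCL replicate 2, Ccnd2 non-MCL transplant replicate 1 and p53-only replicates 4, 6 and 7. A high share of Igkv2-109 was thus not limited to MCL-like tumours, and several MCL-like libraries share a mouse. Its near copy Igkv2-116 held 6.06% of all V counts and led in p53-only replicate 5, with 43 counts beside 41 of Igkv2-109.

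Some other segments had most of their counts in 1 mouse. Igkv17-121 had 98 counts, and all came from the 3 libraries of 1 mouse: 44 in MCL-like primary replicate 1 and 27 in each of its transplants, MCL-like transplant replicates 1 and 2. The pseudogene Igkv9-119 had 141 of its 155 counts in the same 3 libraries, leading in the primary with 33.0% of V counts and in transplant replicate 2 with 24.3%. Igkv14-126 had 91 of 108 counts in a primary and transplant of another mouse, where it led with 53.7% of V counts (MCL-like primary replicate 2) and 59.0% (transplant replicate 6). These segments were thus counted in a primary and again in transplants from the same mouse. Igkv5-43 had 36 of 41 counts in the p53-only mouse that gave a pair of libraries, 19 in replicate 2 and 17 in replicate 5. Igkv3-2 had 40 of 43 counts in p53-only replicate 4. Others were spread, as Igkv19-93 and Iglv3 were counted in 14 mice each, with 21.2% and 15.0% of their counts in the mouse that had most.

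Igkv1-35, 714.8 kb upstream of Igkc and on the opposite strand, was the leading segment of Ccnd2 non-MCL replicates 2 (71.1% of 45 V counts) and 3 (38.3% of 81) and of p53-only replicate 4 (24.7% of 223). It had 37, 32 and 31 counts in Ccnd2 non-MCL replicates 1 to 3, against 0, 0, 0 and 2 counts in MCL-like replicates 1 to 4. Over all libraries it had 195 counts, 1 of them in the 6 MCL-like transplants. Igkv9-124 led in p53-only replicate 6 with 40.8% of V counts, and was also counted in p53-only replicates 4 (29 counts) and 7 (13 counts). The lambda segment Iglv1 led in p53-only replicate 7, where it held 102 of 171 V counts (59.6%), and Iglc1, a constant gene it is usually joined to, was at its highest there. It also led in p53-only replicate 3 on 8 of 30 V counts, in Ccnd2 non-MCL transplant replicate 2 on 11 of 23 and in MCL-like transplant replicate 1 on 103 of 271. Leads on so few counts are loosely set: for the 8 of 30 the interval was 12.3 to 45.9%.

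**Figure D4:**
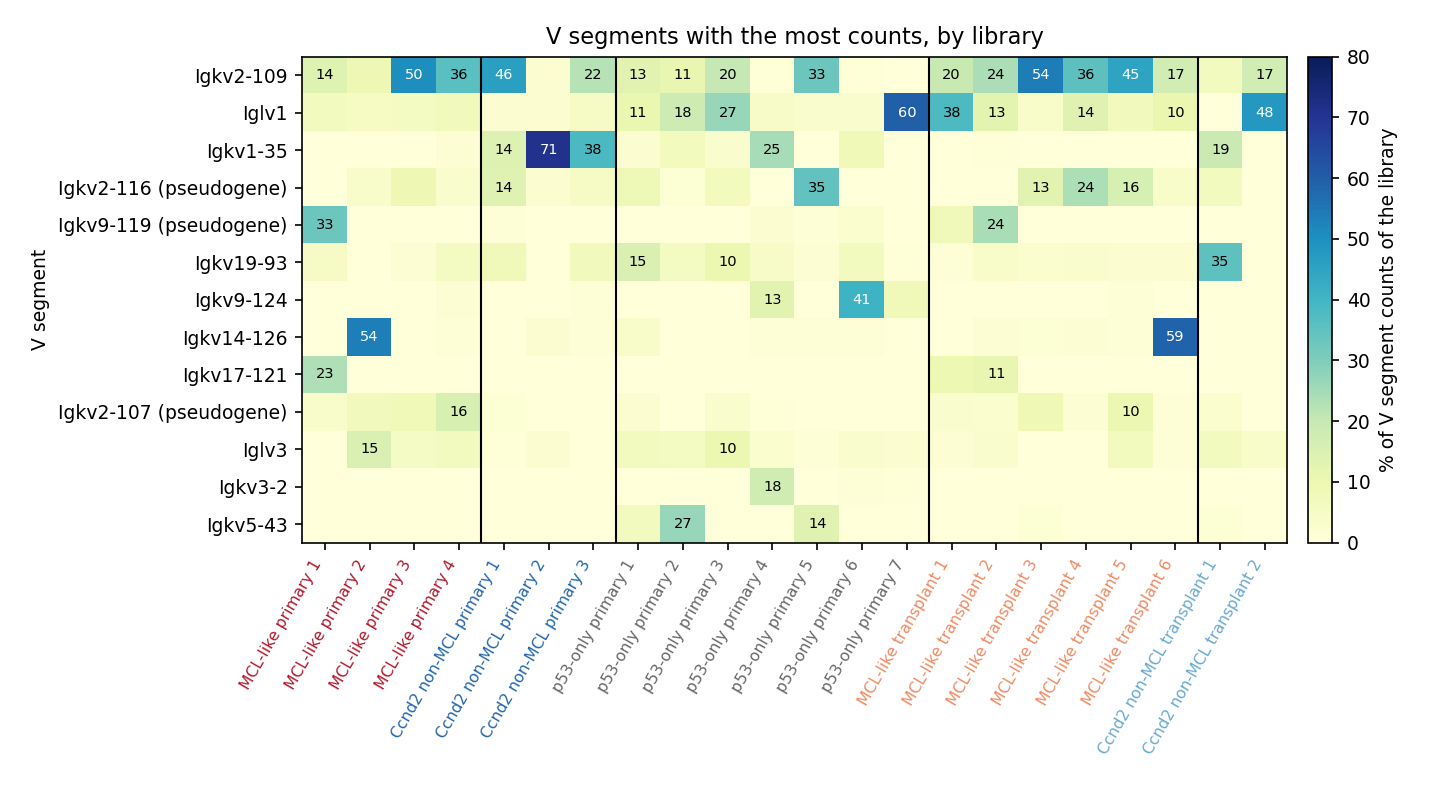
Share of V segment counts in each library for the 13 rule-named segments with the most counts, with shares of at least 10% printed in the cell in percent. Igkv2-109 is spread over most libraries, while Igkv17-121, Igkv9-119 and Igkv14-126 are concentrated in the libraries of single mice, primary and transplant alike.

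The leading segment was the same in 5 of 9 pairs of libraries from 1 mouse (55.6%) and in 22 of 222 pairs from different mice (9.91%). The median share of V counts that a pair had in common was 61.2% within a mouse and 28.1% between mice. The lowest within a mouse, 18.1%, was between the Ccnd2 non-MCL transplants, led by Igkv19-93 in replicate 1 (28 of 80 counts) and by Iglv1 in replicate 2. Igkv1-135 was counted 6 times in each of these, and once in all other libraries. Both had gamma heavy chain rather than mu: Ighg1 was at 3603 and 3178 CPM and Ighm at 9.79 and 23.6 CPM. Pairs of libraries share mice and are not independent, so these counts are a description.

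The leading segment held 43.3 ± 10.3% of V counts (SD, n = 4 mice) in MCL-like, 51.8 ± 17.2% (n = 3) in Ccnd2 non-MCL and 32.0 ± 15.8% (n = 6) in the p53-only group. Pseudogenes held 14.8 to 38.3% of V counts in the MCL-like primaries and 1.17 to 24.1% in the 9 non-MCL mice. The 24.1% came from the summed libraries of 1 mouse, with 4.23% in p53-only replicate 2 and 35.5% in replicate 5. Igkv2-116, Igkv2-107 and Igkv9-119 supplied 407 of the 484 pseudogene counts, and the first of them has the near-identical functional copy shown above.

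MCL-like and Ccnd2 non-MCL primaries, which share a genotype, were compared over 4 and 3 mice with edgeR's quasi-likelihood test. The threshold for a call was an adjusted p of 0.05 (Benjamini-Hochberg over all 12967 genes tested). No light chain gene was called of the 9 that passed the low-count filter. Among all genes 0.308% were called, 0.0617% as higher and 0.247% as lower in MCL-like tumours. DESeq2 called 4 light chain genes, where it called 6.44% of all genes, and edgeR gave 4 an unadjusted p under 0.05, as it did 16.8% of all genes. In each case these were Iglc1, Iglc3, Iglc4 and Igkv1-35. They had no overlap between the groups, as had 16.6% of all genes tested. Iglc4 was at 0 in one of the groups and Igkv1-35 had 2 counts in one. The low-count filter could therefore keep them only through libraries of other groups. Nothing is read from their lack of overlap, or from their p-values and calls in comparisons of MCL-like with non-MCL tumours. Means given beside a log2 difference are TMM-scaled CPM over mice, while CPM given by library are unscaled. Iglc1 was at 744 ± 542 CPM (SD, n = 4) in MCL-like and 27.3 ± 33.5 CPM (n = 3) in Ccnd2 non-MCL mice, a log2 difference of 4.75 (SE 1.24, edgeR adjusted p = 0.0976). For Iglc3 the levels were 311 ± 113 and 34.4 ± 50.2 CPM, with a log2 difference of 3.15 (SE 1.03, edgeR adjusted p = 0.146). Igkc had a log2 difference of 2.15 (SE 1.23, edgeR adjusted p = 0.406), with overlap through MCL-like replicate 3.

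Without Ccnd2 non-MCL replicate 3 edgeR called Iglc3, with a log2 difference of 5.89 (adjusted p = 0.0374), and no other light chain gene, where 0.31% of all genes were called. The log2 difference of Iglc2 went from 1.88 to 8.70 and that of Iglc1 from 4.75 to 6.60, and neither was called. Leaving out that tumour together with the p53-only tumours whose names share its prefix oTP gave 4 calls, where 4.24% of all genes were called: Iglc1 at 6.57 (adjusted p = 0.0136), Iglc2 at 8.67 (0.0131), Iglc3 at 5.87 (0.0109) and Igkv1-35, which was lower. Nothing is read from the call of Igkv1-35, for the reason given above. The labels do not say what the prefix stands for. Plasma cell genes summed to 707, 584 and 1161 CPM in Ccnd2 non-MCL replicates 1 to 3 and to 444 to 1483 CPM in the MCL-like primaries. The 3 B cell genes summed to 607 to 1243 CPM in Ccnd2 non-MCL and 1828 to 3052 CPM in MCL-like primaries. For the 6 T cell genes the sums were 8.09 to 26.1 and 61.3 to 188 CPM. Neither sum overlapped, and 16.6% of all single genes tested had no overlap either. In the p53-only primaries the sums were 443 to 1985 CPM for B cell and 1.65 to 217 CPM for T cell genes, which overlapped the MCL-like ranges. The erythroid genes Hba-a1, Hba-a2, Hbb-bs, Hbb-bt and Alas2 summed to 3131 to 32011 CPM in Ccnd2 non-MCL and 22871 to 110191 CPM in MCL-like primaries. The part of these genes in the result was not tested.

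Genes that build the receptor or the light chain locus were followed in a list of 26, all tested. Vpreb3, a B-lineage chaperone-like protein related to the surrogate light chain, fell in MCL-like against Ccnd2 non-MCL mice, from 1197 ± 243 to 63.4 ± 34.1 CPM (log2 difference -4.24, SE 0.75, edgeR adjusted p = 0.0471), and was the 1 gene of the list called. This call was lost without any 1 of 6 of the 7 mice compared (adjusted p 0.0773 to 0.135), Ccnd2 non-MCL replicate 3 being the exception, and with p53-only replicate 2 alone in place of that mouse's summed libraries (0.0560). The median log2 difference of the list was -0.25, beside -0.04 over all genes. Rag1, which with Rag2 cuts the V and J segments for joining, had 456, 680 and 435 counts in the Ccnd2 non-MCL libraries and 0, 0, 1 and 0 in the MCL-like ones, with an edgeR adjusted p of 0.0521. Rag2 had 57, 42 and 84 counts against 0, 0, 0 and 4 (adjusted p = 0.122). The low-count filter could keep Rag1 and Rag2 only through non-MCL libraries. Nothing beyond their counts is read from their p-values and calls in comparisons of MCL-like with non-MCL tumours. Spib, a transcription factor of mature B cells, was at 141 ± 52.0 and 599 ± 177 CPM, in Ccnd2 non-MCL and MCL-like mice (adjusted p = 0.0665). Without the oTP tumours edgeR called Rag1 (adjusted p = 0.00481) and Rag2 (0.0452) as lower and Spib (0.0468) as higher in MCL-like tumours. In that fit 4.24% of all genes were called. Ighm, the mu heavy chain, had a log2 difference of 1.54 (SE 0.68, edgeR adjusted p = 0.265). Vpreb1 was at 2222 to 5608 TMM-scaled CPM in Ccnd2 non-MCL mice and at 1.06 to 203 CPM in MCL-like mice, without overlap, with an edgeR adjusted p of 0.218. DESeq2 called 6 of the 26, beside its 6.44% of all genes, with Spib higher and Vpreb3, Rag1, Rag2, Vpreb1 and Igll1 lower in MCL-like tumours.

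Against all 9 non-MCL mice, which include the Ccnd2 non-MCL mice above, no light chain gene was called among 6 tested, where 5.51% of all 12434 genes were called, 3.11% as higher and 2.4% as lower. Iglc2 and Igkv1-35 had an unadjusted p under 0.05, as had 25.0% of all genes, and DESeq2 called Igkv1-35 and 13.7% of all genes. Nothing is read from the p-values or the call of Igkv1-35, which passed the low-count filter only through non-MCL libraries. Igkc was at 7684 ± 5523 TMM-scaled CPM (SD, n = 4) in MCL-like and 2532 ± 2075 CPM (n = 9) in non-MCL mice, a log2 difference of 1.60 (SE 0.85, edgeR adjusted p = 0.256). The group ranges overlapped for each of the 6 genes, while 4.86% of all genes had no overlap. Iglc2 had the largest positive log2 difference, 2.61 (SE 1.10, edgeR adjusted p = 0.155), with 792.6 ± 568.1 against 129.6 ± 206 CPM. Igkv1-35 was at 0.122 ± 0.245 against 4.92 ± 5.76 CPM (edgeR adjusted p = 0.0893).

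In that comparison 4 of the 26 receptor genes were called, 1 higher and 3 lower, with a list median of -0.29 beside -0.07 over all genes. Spib rose in MCL-like tumours, with a log2 difference of 1.72 (SE 0.32, edgeR adjusted p = 0.0126). Vpreb3 fell by 3.75 on the log2 scale (edgeR adjusted p = 0.0113). Rag1 (edgeR adjusted p = 0.0126) and Rag2 (edgeR adjusted p = 0.0437) were also called as lower, with 1 and 4 counts in all MCL-like primaries together. Here too the low-count filter could keep Rag1 and Rag2 only through non-MCL libraries, so nothing beyond their counts is read from these calls. Without the oTP tumours Vpreb3 and Rag1 were not called, at adjusted p = 0.0735 and 0.0622, and 2.13% of all genes were. Leaving out MCL-like replicate 3 also ended the call of Rag1 (0.0554). Rag2 lost its call without any 1 of the MCL-like mice, without Ccnd2 non-MCL replicate 1 or 3, and without p53-only replicate 4, 6 or 7 (adjusted p 0.0552 to 0.116). Ighm had a log2 difference of 1.502 (SE 0.47, edgeR adjusted p = 0.0730), and DESeq2 called it as higher (log2 difference 1.51, adjusted p = 0.0216). DESeq2 called 8 of the 26 genes, with Spib, Syk and Ighm higher and Vpreb3, Rag1, Rag2, Vpreb1 and Igll1 lower.

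Ccnd2 non-MCL and p53-only primaries differ by the transgene and were compared over 3 and 6 mice. No light chain gene was called of 9 tested by edgeR, nor any of the 12967 genes (0%). Of the light chain genes 3 had an unadjusted p under 0.05 (Iglc1, Iglc3 and Igkv2-109), as had 10.3% of all genes, and DESeq2 called Iglc1 and 0.887% of all genes. None of the 9 was free of overlap, against 3.56% of all genes. Iglc1 was at 27.3 ± 33.5 TMM-scaled CPM in Ccnd2 non-MCL mice against 377 ± 415 CPM in the p53-only group, a log2 difference of -3.77 (SE 1.15, edgeR adjusted p = 0.349). Igkc was at 1681 ± 591 and 2979 ± 2485 CPM (log2 difference -0.83, SE 1.10, edgeR adjusted p = 0.822). Without the oTP tumours, which were 1 Ccnd2 non-MCL and 4 p53-only libraries, Iglc1 and Iglc3 were called as lower in Ccnd2 non-MCL tumours (adjusted p = 0.0467 and 0.0367), where 0.891% of all genes were called. In the receptor list 0 of 26 genes were called by edgeR or DESeq2, and 1, Vpreb2, had an unadjusted p under 0.05 in edgeR. Without the oTP tumours edgeR called 1 of 25, Igll1, as higher in Ccnd2 non-MCL tumours, beside the 0.891% of all genes. With all tumours the list's median log2 difference was 0.16 beside -0.04 over all genes.

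The p53-only tumours also differed among themselves. Replicates 4, 6 and 7 had Rag1 at 135, 89.4 and 360 CPM and Vpreb1 at 5132, 458 and 2879 CPM, genes of light chain assembly and of the stage before it. Replicate 7 nevertheless had 5092 CPM of Igkc, unlike replicates 4 and 6. In the mouse with a pair of libraries, replicates 2 and 5 had a kappa share of 94.4% and 72.9%, and Igkc at 6175 and 3835 CPM. Their leading segments differed, as Igkv5-43 and Igkv2-116, though Igkv5-43 was counted in each. Replicate 3 had 4956 CPM of Ighg2b, a gamma heavy chain, and the highest ratio of Igkc to Ighm among the p53-only libraries except replicate 5.

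Transplants were set beside primaries of the same 3 mice, with the mouse as a block in the fit. Igkc was higher in the transplants of all 3 mice. The primary of the first mouse had 12221 CPM and its transplants 47500 and 23674 CPM. In the second mouse Igkc went from 7342 to 18298 CPM, and in the third from 5921 to 7558 and 6883 CPM. The log2 difference was 1.17 (SE 0.61), with an edgeR adjusted p of 0.820. No light chain gene was called of 7 tested, nor any of the 12020 genes (0%), and none of the 7 had an unadjusted p under 0.05, as 5.46% of all genes had. Primary and transplant ranges overlapped for each of the 7, where 7.25% of all genes had none. DESeq2 called Igkc (adjusted p = 0.0377) and no other light chain gene, beside 0.266% of all genes. All 7 log2 differences were positive, with a median of 0.38 beside 0.01 over all genes, and 6056 of all 12020 genes were positive. The lambda constant genes differed less: Iglc1, Iglc2 and Iglc3 had log2 differences of 0.28, 0.34 and 0.27, each smaller than its SE of 0.39 to 0.41. The kappa share was higher in the transplants of the first and second mouse and lower in those of the third.

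**Figure D5:**
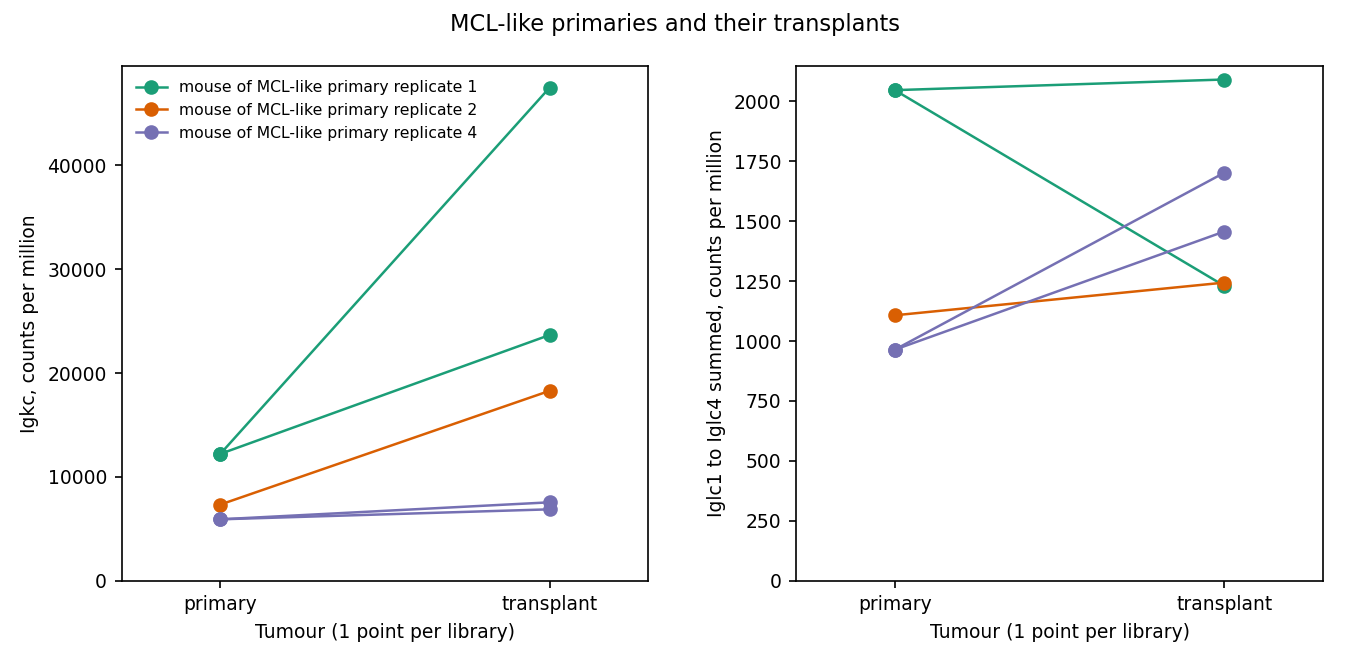
Igkc (left) and the sum of Iglc1 to Iglc4 (right) in MCL-like primaries and their transplants, in CPM with both axes from 0; lines join a primary to each transplant of the same mouse. Igkc is higher in all 5 transplants, by the widest margin in the mouse of replicate 1, and the lambda sum goes down in 1 of them.

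Plasma cell genes moved with Igkc in the first mouse. Jchain, which joins secreted antibodies into polymers, was at 214 CPM in the primary and 1705 and 780 CPM in the transplants. The 7 plasma cell genes summed to 1483 CPM there and to 3985 and 2468 CPM in the transplants. In the second mouse they summed to 768 CPM in the primary and 1050 CPM in the transplant, and in the third to 832 and to 1038 and 1112 CPM. The 5 erythroid genes summed to 50371 CPM in the primary of the first mouse and to 117564 and 10748 CPM in its transplants, to 110191 and 274 CPM in the second mouse, and to 22871, 944 and 1569 CPM in the third. The 3 B cell genes summed to 1828 to 3052 CPM in the primaries of these mice and to 1485 to 2124 CPM in their transplants. The part of these genes in the Igkc levels was not tested. Ighm was higher in the transplants of 3 of 3 mice and was not called, with a log2 difference of 0.63 (SE 0.58, edgeR adjusted p = 0.849). In the receptor list 0 of 21 tested genes were called by edgeR or DESeq2, and 1, Irf4, had an unadjusted p under 0.05 in edgeR. Irf4, a transcription factor that acts on the light chain enhancers and in plasma cells, was at 103 ± 30.8 and 209 ± 151 TMM-scaled CPM (log2 difference 0.81, SE 0.33, edgeR adjusted p = 0.820). The list's median was 0.17.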

How the data were processed

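Per the labels' protocols, RNA came from fresh lymphoma cells and libraries were made with a 3′ end kit. Per the submitters' processing notes, FastQC and STAR with GRCm38 were used. No version, read counter, strand setting or annotation is given there. The authors deposited raw, unnormalized counts per gene, which entered the tests unchanged. Symbols came from GENCODE M21 (52403 of 52636 identifiers matched). CPM was computed from these counts. Members, gene lists and alternatives were chosen with earlier results of these data known. Named were Igkc, every Iglc gene, the leading V segment of each library and the second at 10% or more of V counts, called members, and up to 4 genes of the receptor list per comparison with the lowest adjusted p, with Ighm and Vpreb1. Heavy chain genes other than Ighm, Jchain, Igll1, Syk and Ccnd2 were named outside it.

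Libraries of 1 mouse were summed. edgeR 4.0.16 (R 4.3.3) was used with TMM scaling, its default low-count filter and robust quasi-likelihood fits. The code was also run on simulated counts with the same spread set for every gene. That run does not measure the power to call light chain genes here. The 13 primary mice shared a fit, and the comparison with all non-MCL mice used 2 groups. For transplants the mouse was a block, since the labels name the primary mouse. Deviations correlated at 0.231, 0.243 and 0.359 within a mouse, over 12020 genes. Primary comparisons share samples. The labels separate replicates by mouse, and some also by tumour site or name prefix, and p-values measure the spread between these mice, whatever its source. No 2 libraries agreed within counting noise (smallest chi-square per degree of freedom 5.41 over 231 pairs). Alternatives were DESeq2 1.42.0, other scalings, no low-count filter, and leaving out mice or the oTP tumours. SE is the absolute log2 difference divided by the square root of F. The B cell and erythroid lists were summed over 3 and 5 genes, and 1 more gene of each is not reported here.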

Additional observations from a re-analysis of the deposited data

Results flagged for a closer look

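Of 33 groups of values checked for a sample far from the rest, 6 had one. Chance gives about 1 in 20 for independent, normally distributed values, and the measures checked here share mice and are not independent. The 3 Ccnd2 non-MCL primaries were too few for the check. Their replicate 3 had a kappa share of 57.1% against 98.9% and 99.5% in replicates 1 and 2. MCL-like primary replicate 3 had a kappa share of 41.4%, while the nearest of the other 3 MCL-like primaries had 85.7%. MCL-like primary replicate 4 had 224 CPM of Vpreb1 without TMM scaling, against 1.90 CPM in the next. MCL-like primary replicate 1 had 214 CPM of Jchain, and the next had 32.2 CPM. The summed MCL-like transplants 1 and 2, from the mouse of that primary, had 506 V segment counts against 149 in the next mouse, and 1300.2 CPM of Jchain against 92.0 CPM. p53-only replicate 7 had 311 CPM of Jchain, and the next p53-only mouse had 112 CPM.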

How the results depend on the processing

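Over 780 refits of 55 log2 differences, 18 changed sign, and 44 of the 55 kept their sign throughout. In MCL-like against Ccnd2 non-MCL primaries, light chain calls went from 0 to 4 with DESeq2 and to 4 without the oTP tumours, and were 0 to 1 when a mouse was left out. All-gene calls there were 40, then 22 with DESeq2 size factors, 835 with DESeq2, 552 without the oTP tumours, 16 and 17 with 1 p53-only library in place of the sum, and 0 to 42 when a mouse was left out (0 without MCL-like replicate 3, where edgeR gave 1766 genes an unadjusted p under 0.05). Against all non-MCL primaries DESeq2 called 1 light chain gene, and the 685 calls became 1698 with DESeq2, 246 without the oTP tumours and 176 to 1065 when a mouse was left out. In Ccnd2 non-MCL against p53-only primaries, light chain calls were 1 with DESeq2 and 2 without the oTP tumours. All-gene calls were 0 (1330 at an unadjusted p under 0.05), 115 with DESeq2, 2 without the low-count filter, 116 without the oTP tumours and 0 to 8 when a mouse was left out. In the transplants DESeq2 called 1 light chain gene. All-gene calls were 0 (656 at an unadjusted p under 0.05), 32 with DESeq2, 35 without the low-count filter and 0 to 14 when a mouse was left out.

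With a mouse left out, log2 differences in MCL-like against Ccnd2 non-MCL tumours ranged from -1.16 to 3.02 for Igkv2-109 and from -2.35 to 1.65 for Igkv2-116. In Ccnd2 non-MCL against p53-only tumours they ranged from -0.37 to 4.36 and from -1.53 to 2.51. Each change of sign came without Ccnd2 non-MCL replicate 1. In the latter comparison Iglc2 ranged from -5.55 (without Ccnd2 non-MCL replicate 3) to 1.96 and was -4.73 without the oTP tumours. Ighm ranged from -0.73 to 0.23 and was 0.71 without the oTP tumours, changing sign without Ccnd2 non-MCL replicate 1 or 3 or p53-only replicate 4 or 7. In the transplants the fit with no replicate block gave Iglc1 -0.085, Iglc4 -0.11 and Vpreb1 -1.64. It made no call among the light chain genes either. With a mouse left out, Vpreb1 ranged from -3.05 to 3.27, Iglc2 from -0.12 to 0.63 and Iglc3 from -0.19 to 0.52. By V counts the mean kappa share of MCL-like transplants was 84.1% in place of 90.4%, and without pseudogenes the leading V share of MCL-like primaries was 53.9% in place of 43.3%. The cause of these changes was not tested. With 23 to 271 V counts a library, a segment at 0 counts could still hold up to 3 counts of the total.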
